A study of Zea mays with 15 samples.

Results

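Genes for oxylipin synthesis and one wound-induced inhibitor were followed through the growing base of the maize leaf. The set holds 8 genes of the 39145 in the table: the lipoxygenases lox8, lox9 and lox10, the allene oxide synthase AOS, the allene oxide cyclase AOC1, the 12-oxo-phytodienoic acid reductases OPR7 and OPR8, and the maize proteinase inhibitor MPI. They were chosen by gene identifier, with UV-B results of these libraries already known, so their UV-B values are given as a description without p-values. All 8 had reads, and all 8 passed the filter on low counts that left 23899 genes for testing, MPI through its UV-B libraries. Positions below are those of the deposited table, which names no genome build.

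Oxylipins are oxidised fatty acids. In the plastid, a 13-lipoxygenase adds oxygen to linolenic acid, allene oxide synthase and allene oxide cyclase turn the product into 12-oxo-phytodienoic acid (OPDA), and OPDA reductases of the peroxisome take it on towards jasmonic acid, a hormone of wounding and herbivory that also slows leaf growth. A competing branch from the same lipid hydroperoxides gives green leaf volatiles. Cells of a grass leaf divide at its base, elongate further out and then mature, so position along the base stands in part for cell age.

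The plants were of the B73 inbred line, grown outdoors in a field under plastic films. At noon, UV-B plants received 1.5 W/m2 of UV-B and control plants, under a film that absorbs it, 0.35 W/m2; UV-A was 8 W/m2 for both treatments. Leaf 4 was taken 3 days after it emerged, and its base was cut into zone 1 (0 to 1 cm from the leaf base), zone 2 (1 to 2 cm) and zone 3 (2 to 3 cm). All groups thus share the genotype, the leaf, the outdoor light and a film overhead, and the control still received some UV-B. Whole segments were used, so fewer cells of a type and less RNA per cell cannot be told apart.

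The 14 libraries used comprised 1 of UV-B zone 1, 3 of control zone 1, 3 of UV-B zone 2, 2 of control zone 2, 2 of UV-B zone 3 and 3 of control zone 3, labelled as biological replicates. Numbers of libraries below are replicate numbers. Replicates 1, 2 and 3 bear the numbers 3, 4 and 7 in the titles of control libraries and 7, 8 and 9 in those of UV-B libraries. Total counts ran between 1673416 and 19221143 reads. Replicate 1 of UV-B zone 3 held 728 reads, none of them from the 8 genes, and was left out. The 6 markers of the dividing leaf base summed to 507 to 617 CPM (counts scaled to the same library total) in zone 1, 121 to 230 in zone 2 and 32.9 to 52.6 in zone 3, and the 4 markers of the greening leaf to 36.4 to 63.1, 235 to 421 and 912 to 1365 CPM. Both lists followed the labelled positions. The 3 seed storage genes never passed 0.389 CPM. One library pattern crossed the groups: 3 clock genes (gigz1a, gigz1b and PRR59, a list added after the data were seen) summed to 524 to 810 CPM in the 3 UV-B libraries numbered 3 and to 401 and 791 CPM in the 2 control libraries numbered 1, but to 47.2 to 173 CPM in the other 9 libraries.

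The levels of the 8 genes differed widely when set per transcript length. As the authors' RPKM, averaged over 14 libraries, lox10 reached 55.5, AOS 47.2, AOC1 36.2, OPR7 10.8, OPR8 9.86, MPI 5.85, lox9 3.42 and lox8 0.834. Some neighbours in that order changed places from library to library: lox10 exceeded AOS in 8 of 14 libraries, AOS exceeded AOC1 in 8 of 14 and OPR7 exceeded OPR8 in 8 of 14. The steps that held in 14 of 14 libraries were that of AOC1 over OPR7 and that of lox9 over lox8. MPI exceeded lox9 in only 3 of 14 libraries, although its mean was higher. The set thus spanned a strongly read first enzyme (lox10) and a lipoxygenase at the edge of detection (lox8).

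**Figure D1:**
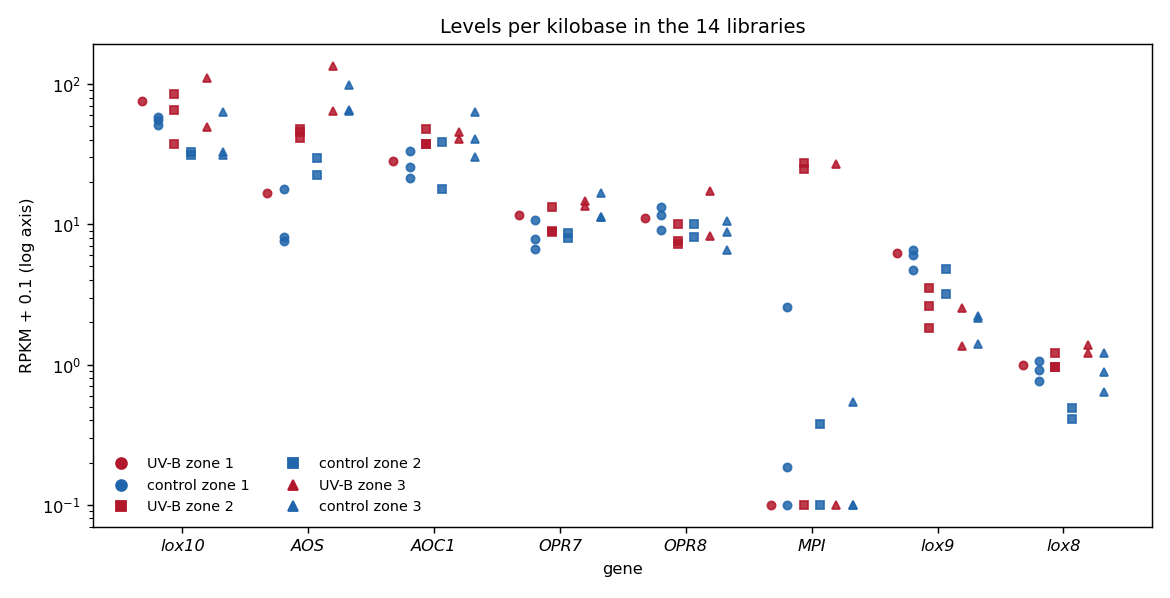
Levels per transcript length of the 8 genes, as RPKM plus 0.1 on a log axis; each point is 1 of 14 libraries, coloured by treatment and shaped by zone, with UV-B left of control within a zone. The genes run from lox10 (mean RPKM 55.5) to lox8 (0.834), and MPI lies near the bottom of the axis except in 3 UV-B libraries and 1 control library.

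AOS (GRMZM2G067225, chr9:145603967-145606347), which commits lipid hydroperoxides to the jasmonate branch, rose most steeply along the leaf. Control libraries had 46.2, 21.5 and 20.1 CPM in zone 1, 56.0 and 78.1 CPM in zone 2 and 260.0, 163 and 172 CPM in zone 3. No 2 of these groups overlapped, and the shares over all genes, where counted, are given below. Zone 3 exceeded zone 1 by 2.84 ± 0.38 on the log2 scale (SE; edgeR adjusted p = 8.51e-05), and this call held under all 23 alternatives tried, with values of 2.63 to 3.34. Zone 3 also exceeded zone 2, by 1.58 ± 0.42 (edgeR adjusted p = 0.0288). That call was lost when any of 4 single libraries was left out (both of control zone 2, and replicates 1 and 3 of control zone 3; log2 values of 1.37 to 1.80, adjusted p over all alternatives 0.00126 to 0.119). It was also lost when only reads unique to 1 transcript model were counted (1.51, edgeR adjusted p = 0.0516).

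The first step, zone 2 against zone 1, was 1.26 ± 0.39 for AOS. It missed the threshold in the main test, which does not pair libraries (edgeR adjusted p = 0.0706). With the replicate number as a block, which pairs the control zones, it was 1.64 and was called (edgeR adjusted p = 0.000283, range over alternatives 0.000283 to 0.226). UV-B leaves, whose libraries are separate from the controls, gave 342 and 174 CPM in zone 3 and 105, 122 and 119 CPM in zone 2. These groups did not overlap either, and the share of all genes for which that holds was not counted. The UV-B step between zones 2 and 3 was 1.19 ± 0.39 (edgeR adjusted p = 0.0861; range over alternatives 0.00592 to 0.528) and was not called.

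The lipoxygenases behaved differently from each other and from AOS. lox9 (GRMZM2G017616, chr1:16573826-16580722), a predicted plastid 13-lipoxygenase, was highest at the very base. Its control libraries had 15.1, 19.0 and 21.4 CPM in zone 1, 9.85 and 15.4 CPM in zone 2, and 4.48, 6.82 and 6.91 CPM in zone 3. Zones 3 and 1 did not overlap, whereas zones 2 and 1 did. Zone 3 was 1.48 lower on the log2 scale (a change of -1.48 ± 0.31; edgeR adjusted p = 0.00200). The count of reads unique to 1 transcript model gave a change of only -0.13 (edgeR adjusted p = 0.848; range over alternatives 6.45e-05 to 0.848). Such reads made up 37.9% of lox9 reads in control zone 3 and 13.8% in control zone 1. Zone 3 against zone 2 was -0.997 ± 0.34 and was not called in the main test, without pairing (edgeR adjusted p = 0.0725). It was -0.87 with the replicate block (edgeR adjusted p = 0.0321; range over alternatives 0.0321 to 0.932) and 0.10 with unique reads.

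lox10 (GRMZM2G015419, chr4:234164918-234168681), which in maize supplies the green leaf volatile branch, had the most reads of the 3 lipoxygenases. Control libraries held 144, 165 and 137 CPM in zone 1, 97.6 and 90.7 CPM in zone 2, and 206, 95.4 and 104 CPM in zone 3. The last group spans more than the first: its replicate 1 stood above all zone 1 libraries and its other 2 below them. Zone 3 against zone 1 was -0.07 ± 0.40 (edgeR adjusted p = 0.900).

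lox8 (GRMZM2G104843, chr2:45820736-45825105), known as tasselseed1 for its part in jasmonate-dependent tassel sex determination, was barely read. Control libraries had 3.41, 2.34 and 2.97 CPM in zone 1, 1.09 and 1.40 CPM in zone 2, and 1.99, 3.89 and 2.89 CPM in zone 3, the zone 2 values resting on 16 reads in all. Zone 2 lay below both neighbours without overlap, but the share of all genes for which that holds was not counted. The step out of zone 2 was 1.28 ± 0.46 (edgeR adjusted p = 0.0832) and did not pass the test.

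AOC1 (GRMZM2G077316, chr1:76740124-76741716), the cyclase that fixes the stereochemistry of OPDA, was called in 1 zone comparison. Control libraries had 40.4, 51.6 and 33.7 CPM in zone 1, 58.9 and 27.9 CPM in zone 2, and 104, 63.5 and 49.7 CPM in zone 3. Neighbouring groups overlapped. Zone 3 exceeded zone 1 by 0.86 ± 0.32 (edgeR adjusted p = 0.0402), a call lost when any of 6 libraries was left out, which were replicates 1 and 3 of control zone 1, replicates 1 and 2 of control zone 3 and replicate 2 of both UV-B zones 2 and 3. With replicate 1 of control zone 3 left out, the value was 0.55 (edgeR adjusted p = 0.185, range over alternatives 0.00219 to 0.185). With all 14 libraries kept, the call was also lost by limma-voom (0.76, limma-voom adjusted p = 0.0561) and with unique reads (0.93, edgeR adjusted p = 0.0530).

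OPR7 (GRMZM2G148281, chr1:207946159-207950205) and OPR8 (GRMZM2G082087, chr4:63562326-63567747) encode near-identical OPDA reductases that are jointly needed for jasmonic acid in maize. The difference between their courses was not tested. OPR7 had 20.6, 14.7 and 13.2 CPM in control zone 1, 16.6 and 16.1 CPM in control zone 2, and 34.4, 22.0 and 22.8 CPM in control zone 3. Zone 3 lay wholly above the other zones, by 0.77 ± 0.23 over zone 1 (edgeR adjusted p = 0.0155). Leaving out control zone 1 replicate 2 or 3, or control zone 3 replicate 1, ended that call (lowest value 0.58; adjusted p over all alternatives 0.00179 to 0.0674). OPR8 had 20.0, 22.8 and 15.8 CPM in control zone 1, 16.9 and 14.4 CPM in control zone 2, and 16.9, 10.3 and 15.8 CPM in control zone 3. Its groups overlapped, and zone 3 against zone 1 was -0.37 ± 0.27 (edgeR adjusted p = 0.259). Of OPR7 reads 87.6%, and of OPR8 reads 13.2%, were unique to 1 transcript model. The rest can be shared between the models of a gene as well as between the copies, and how many reads the copies share was not tested, so their levels are uncertain.

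In the main tests, which do not pair libraries, 4 of the 8 genes passed between control zones 3 and 1, where 51.3% of all tested genes did. Of these, 3 were higher in zone 3 (25.6% of all genes) and 1 was lower (25.7%), so the count of calls was close to the background. Groups did not overlap for AOS and OPR7 (higher, 29.1% of all genes) and for lox9 (lower, 36.7%). For control zone 2 against its neighbours, and for UV-B zone 3 against UV-B zone 2, such shares were not counted. Nothing is therefore read from those separations. Between control zones 2 and 1, 0 of 8 were called (8.33% of all genes, 6.63% higher and 1.69% lower). Between control zones 3 and 2, 1 of 8 was called, AOS (13.3% of all genes, 5.86% higher and 7.46% lower). Between UV-B zones 3 and 2, 0 of 8 were called (6.85% of all genes).

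**Figure D2:**
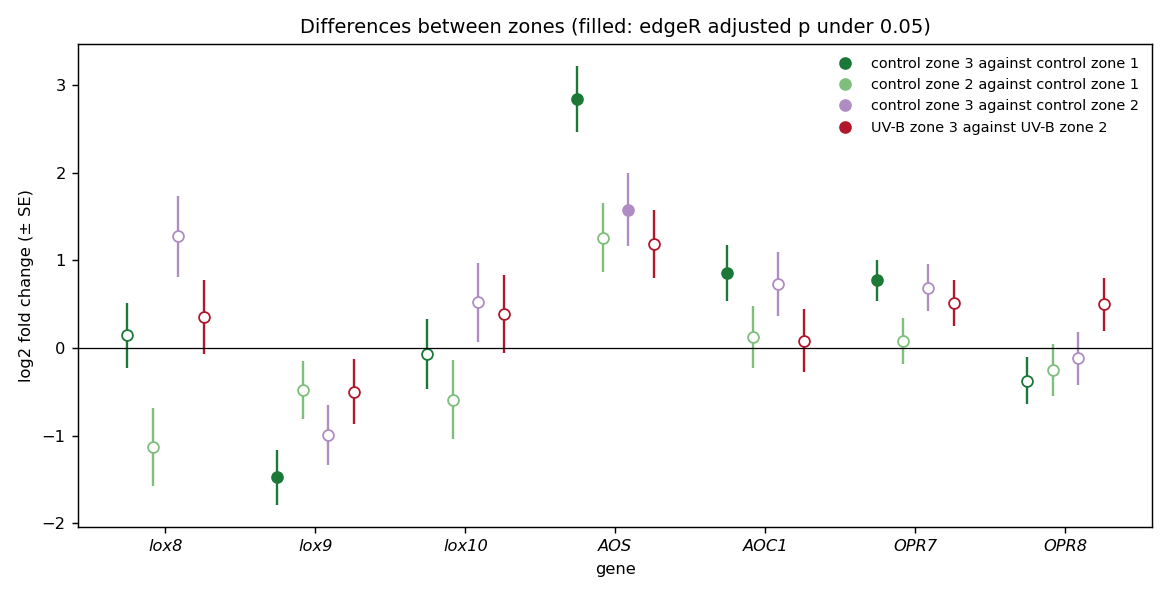
Log2 fold change with its standard error between leaf zones for 7 genes (MPI, with almost no control reads, is left out); colours mark the 4 comparisons and filled points those with an edgeR adjusted p under the threshold of 0.05. AOS lies above 0 in all 4 comparisons, led by 2.84 for control zone 3 against zone 1, and lox9 lies below 0 in all 4.

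MPI (GRMZM2G028393, chr8:133996632-133997534), a serine proteinase inhibitor that accumulates after wounding and insect feeding in maize, was read in a few libraries only. Replicates 1 and 2 of UV-B zone 2 held 203 and 267 MPI reads (21.4 and 19.2 CPM) and replicate 2 of UV-B zone 3 held 99 reads (21.2 CPM). Replicate 3 held 0 reads in all 3 UV-B zones, which allows up to 0.156 CPM in zone 1, 0.249 CPM in zone 2 and 1.79 CPM in zone 3 by counting error. Within zones 2 and 3 the UV-B libraries thus split by replicate number. UV-B zone 1 has replicate 3 only, so zone and replicate number cannot be told apart there. Control libraries held 0, 30 and 1 reads in zone 1, 1 and 0 reads in zone 2, and 0, 1 and 0 reads in zone 3, and the highest of them, replicate 2 of zone 1, reached 1.67 CPM.

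Group means of MPI therefore describe no single library. They were 13.6 ± 11.8 CPM in UV-B zone 2 (SD, n = 3) against 0.109 ± 0.155 CPM in control zone 2 (SD, n = 2). In UV-B zone 3 the mean of 10.6 CPM averages 21.2 and 0 CPM, against 0.0649 ± 0.112 CPM in control zone 3 (SD, n = 3). Control zones 2 and 3 each rest on 1 read, so no fold change is given. Between control zones 3 and 1, MPI was at -2.76 ± 3.05 and not called (edgeR adjusted p = 0.469), and at -2.83 with the replicate block (edgeR adjusted p = 0.0310; range over alternatives 0.0310 to 0.957). Of the 31 MPI reads in control zone 1, 30 were in replicate 2, and without that library the value was 0.80, the other way.

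**Figure D3:**
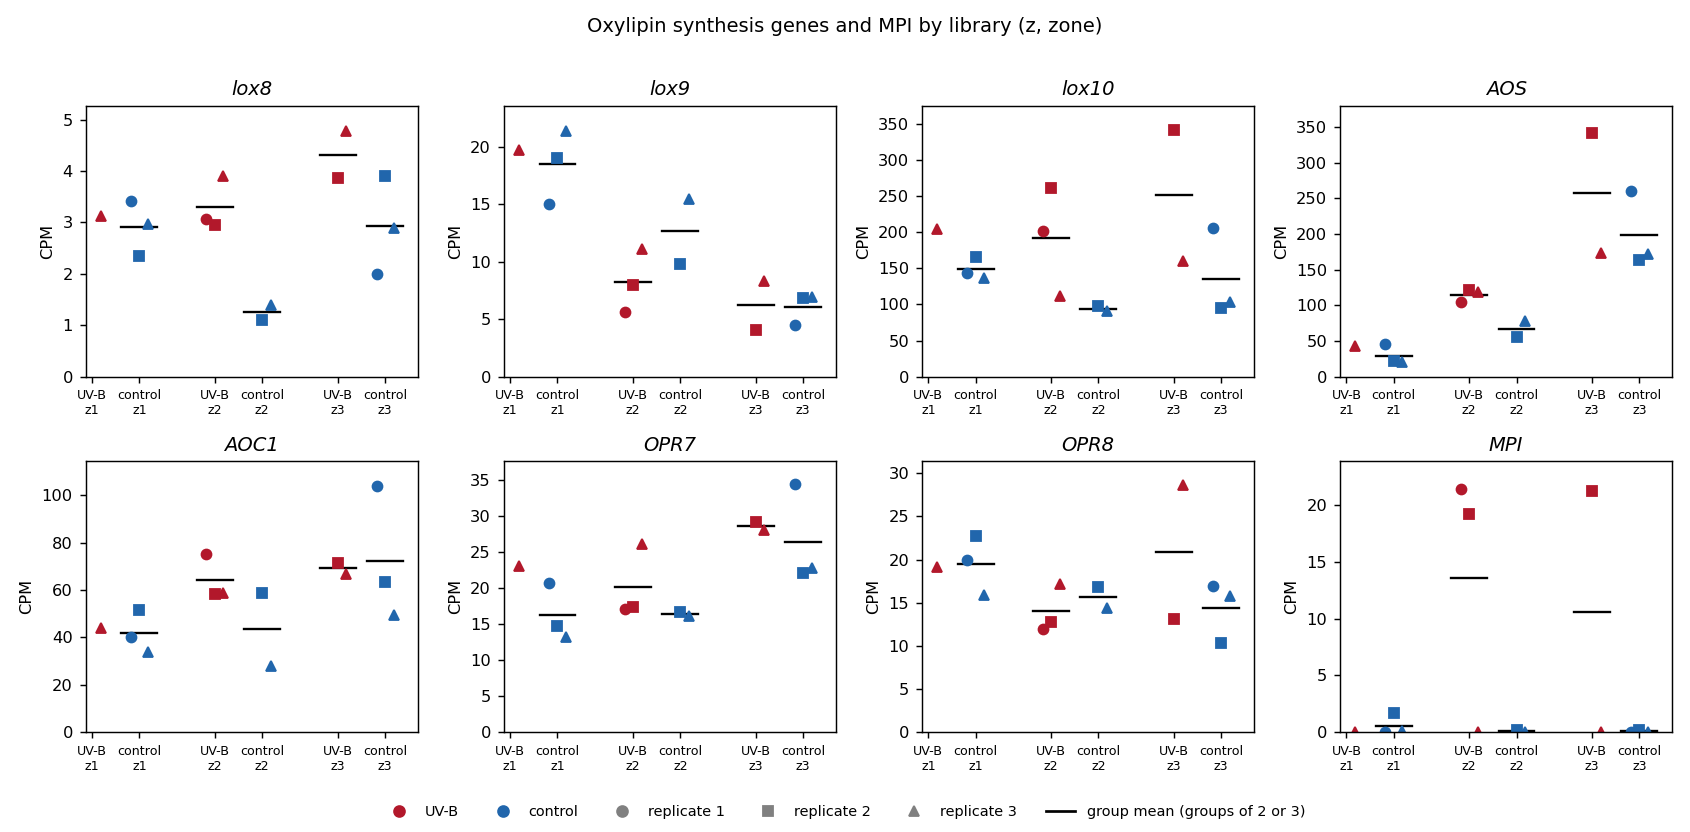
CPM of the 8 genes in 14 libraries, with UV-B left of control in each zone, marker shapes for replicate numbers and bars for the means of groups with 2 or 3 libraries. In control libraries the mean of AOS climbs from zone to zone and that of lox9 descends. For neither gene was the step between UV-B zones 2 and 3 called. MPI stands at 19.2 to 21.4 CPM in 3 UV-B libraries against at most 1.67 CPM elsewhere.

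In zone 2, lox8, lox10, AOS and OPR7 had UV-B libraries that all lay above the control libraries, and none of the 8 genes was called. lox10 had 201, 261 and 112 CPM in UV-B zone 2, against 97.6 and 90.7 CPM in control zone 2. lox8 had 3.06, 2.95 and 3.91 CPM in UV-B zone 2, against 1.09 and 1.40 CPM in control zone 2. Of its reads, 0% in UV-B zone 2 and 3.66% over the 14 libraries were unique to 1 transcript model. AOS had 105, 122 and 119 CPM in UV-B zone 2, against 56.0 and 78.1 CPM in control zone 2. OPR7 had 17.1, 17.3 and 26.0 CPM there, against 16.6 and 16.1 CPM in control zone 2, a small gap. The UV-B and control libraries of lox9, AOC1, OPR8 and MPI overlapped; of all genes, 8.43% were higher and 4.59% lower without overlap in zone 2. The sum of the 4 greening markers was higher in the same libraries, at 261 to 421 CPM in UV-B zone 2 against 235 and 252 CPM in control zone 2. Of these markers only FDX1 separated, at 148 to 262 CPM against 119 and 144 CPM. mdh6, ssu1 and psad1 overlapped, and mdh6 had the lower mean under UV-B (64.9 against 69.3 CPM). The sum of the 6 markers of dividing cells was lower in part, at 121 to 198 CPM in UV-B zone 2 against 192 and 230 CPM in control zone 2. The part of either marker list in the differences was not tested.

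On the log2 scale, UV-B against control in zone 2 was 1.36 ± 0.45 for lox8, 1.04 ± 0.46 for lox10, 0.77 ± 0.41 for AOS, 0.56 ± 0.36 for AOC1, 0.27 ± 0.26 for OPR7, -0.19 ± 0.29 for OPR8 and -0.66 ± 0.33 for lox9. AOC1 had 75.1, 58.3 and 59.0 CPM in UV-B zone 2, and its difference was 1.23 without control zone 2 replicate 2 but 0.09 without control zone 2 replicate 3. The lower value of lox9 came with 5.60, 7.99 and 11.1 CPM in UV-B zone 2, against 9.85 and 15.4 CPM in control zone 2. Reads unique to 1 transcript model gave lox9 a difference of 0.19.

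In zone 3 all 8 genes overlapped between treatments (7.57% of all genes were higher and 7.75% lower without overlap). lox10 had 341 and 161 CPM in UV-B zone 3, against 206, 95.4 and 104 CPM in control zone 3. Its log2 difference of 0.91 ± 0.44 became 0.14 without replicate 2 and 1.41 without replicate 3 of UV-B zone 3. AOS had 342 and 174 CPM in UV-B zone 3, against 260.0, 163 and 172 CPM in control zone 3, a difference of 0.38 ± 0.39 that turned to -0.31 without replicate 2. OPR8 had 13.1 and 28.7 CPM in UV-B zone 3, against 16.9, 10.3 and 15.8 CPM in control zone 3, and lox9 had 4.07 and 8.37 CPM, against 4.48, 6.82 and 6.91 CPM.

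Zone 1 holds 1 UV-B library, replicate 3. There lox10 was at 205 CPM, against 137 to 165 CPM in the 3 control libraries, and OPR7 at 23.0 CPM, against 13.2 to 20.6 CPM. The other 6 genes lay within their control range, with lox8 at 3.12 CPM, lox9 at 19.7 CPM, AOS at 42.8 CPM, AOC1 at 44.2 CPM, OPR8 at 19.2 CPM and MPI at 0 CPM. The share of all genes outside their control range was not counted in zone 1. Nothing is therefore read from lox10 and OPR7 lying outside it. Over all zones together, log2 differences between UV-B and control were 0.83 ± 0.27 for lox10, 0.65 ± 0.29 for lox8, 0.54 ± 0.23 for AOS, 0.24 ± 0.15 for OPR7, 0.18 ± 0.22 for AOC1, 0.04 ± 0.18 for OPR8 and -0.32 ± 0.21 for lox9. Of the 8 genes, 0 were called in any UV-B comparison, where edgeR called 0.0293% of all genes over all zones (0.0209% higher and 0.00837% lower), 0.00418% in zone 1, 0% in zone 2 and 0.00418% in zone 3.

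In zone 2, edgeR called 0 of all genes, DESeq2 called 2 and limma-voom 1. Before adjustment, 939 of the 23899 tested genes had p under 0.05 in edgeR. That is below the share of 0.05 expected if no gene differed. The difference between the UV-B effects of zones 3 and 2 was called for 0 genes by edgeR, DESeq2 or limma-voom. In edgeR, 454 genes had p under 0.05 before adjustment, again below that share. A difference in UV-B response between zones was therefore not called for any of the 8 genes.

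Reads of lox10 were spread over 5 annotated transcript models. Between control zones 3 and 1, the shares of 1 model were higher and those of 2 were lower without overlap, and the other 2 overlapped. Over the 31725 models of tested genes with several models and reads in all 6 libraries, 20.7% were higher and 18.4% lower without overlap. The model T03, singled out after its values were seen (1844 bases, chr4:234164922-234167325) took 0, 1.02 and 1.24% of lox10 reads in control zone 3, against 22.0, 9.65 and 15.9% in control zone 1. The groups did not overlap, at 0.754 ± 0.662% in zone 3 against 15.8 ± 6.17% in zone 1 (SD, n = 3 each). T01 was also lower, at 0 to 0.155% in control zone 3 against 0.641 to 2.12% in control zone 1. T04 was higher, at 30.5 to 57.6% in control zone 3 against 25.6 to 29.8% in control zone 1. For T03, the single UV-B library of zone 1 had 13.4%, UV-B zone 2 had 0.105, 3.39 and 3.49%, and UV-B zone 3 had 0.314 and 0%. The low share outside zone 1 thus appeared under both treatments. Since only 0.165% of lox10 reads were unique to 1 model, these shares depend on how the authors divided shared reads.

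**Figure D4:**
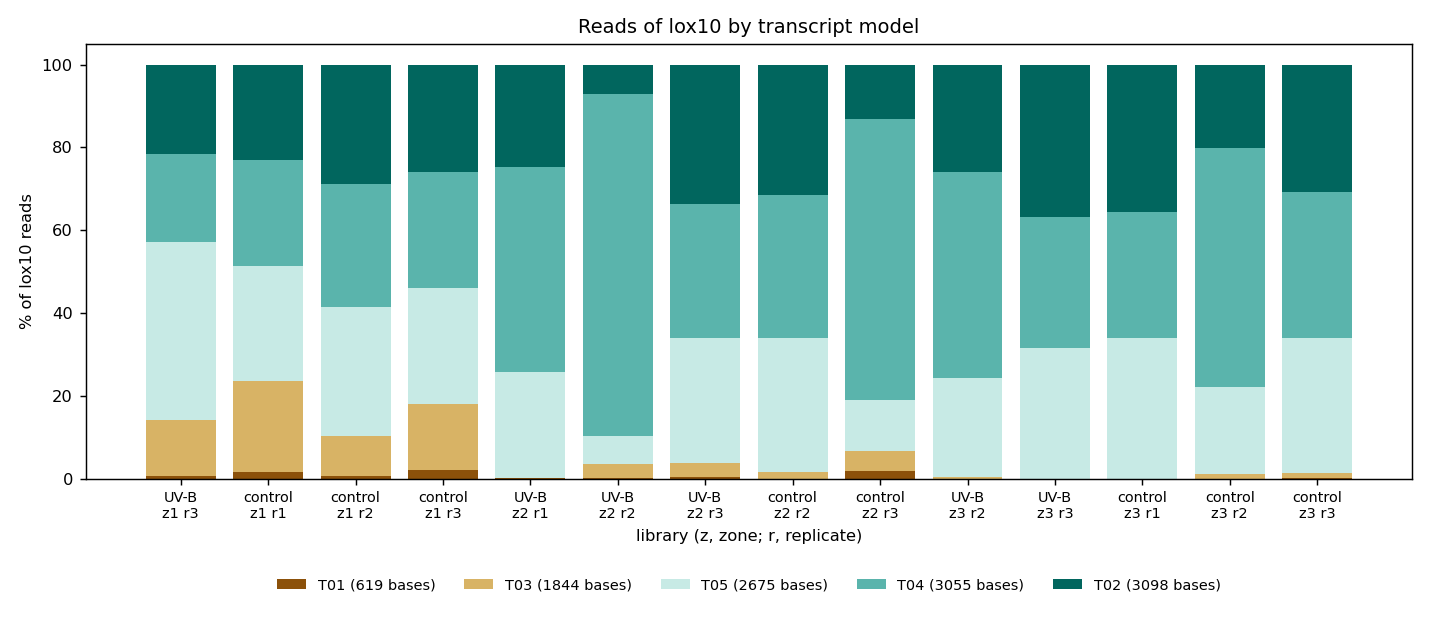
Share of lox10 reads, in percent, assigned to each of its 5 transcript models in 14 libraries, ordered by zone with UV-B left of control. The 1844-base model T03 holds 9.65 to 22.0% of reads in the 4 zone 1 libraries and at most 4.92% in the others.

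For OPR8 the control groups overlapped: its shorter model T01 (1319 bases) took 36.1 and 41.7% of its reads in UV-B zone 3 and 52.9, 34.0 and 6.12% in control zone 3, against 1.96 to 9.82% in control zone 1. These shares rest on 34 to 98 reads in the libraries of control zone 3. AOS has a single model, and AOC1 reads fell almost wholly on its longer one.

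Other genes of the path were counted from lists of gene names. The counts between control zones 3 and 1 stand beside 25.6% of all genes that were higher and 25.7% that were lower, so nothing particular to a list is read from them. Of 7 tested lipoxygenases beside the 3 above (8 in the table), 1 rose and 4 fell between control zones 3 and 1, with a median of -0.94, while the median over all genes was -0.02. lox12, a 9-lipoxygenase, rose by 7.09 ± 0.88 (edgeR adjusted p = 5.19e-05), and lox11 and lox4 fell by 3.00 ± 0.46 and 1.94 ± 0.28 (edgeR adjusted p = 0.000212 and 0.000142). lox5 fell by 0.94 ± 0.20 (edgeR adjusted p = 0.00200), but with unique reads the call was lost (-3.34, edgeR adjusted p = 0.0786; range over alternatives 1.49e-06 to 0.0786). The lox12 level in control zone 1 was 0.155 ± 0.107 CPM (SD, n = 3), so the size of its change depends on few reads. Of the 5 other allene oxide synthase, hydroperoxide lyase and cyclase genes, 2 rose and 0 fell (median 1.05). They were aos2 (1.18 ± 0.38, edgeR adjusted p = 0.0207) and aos3 (1.02 ± 0.39, edgeR adjusted p = 0.0460). The aos2 call ended when control zone 1 replicate 2 or 3 or control zone 3 replicate 1 was left out, the last giving 0.54. The aos3 call ended when any library of control zones 1 and 3, or replicate 2 of UV-B zone 2 or 3, was left out. It also ended with DESeq2 size factors, with no filter and with unique reads (edgeR adjusted p = 0.0503, 0.0878 and 0.0955).

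Of 3 tested OPDA reductases beside OPR7 and OPR8 (5 in the table), opr5 rose by 2.78 ± 0.92 and opr6 fell by 1.46 ± 0.46 (edgeR adjusted p = 0.0234 and 0.0201). The opr5 call ended without replicate 3 of control zone 1 or of control zone 3, and with unique reads it was 1.18 (edgeR adjusted p = 0.464; range over alternatives 0.000660 to 0.464). The opr6 call ended without replicate 1 of control zone 1 or replicate 2 of control zone 3. Of 18 tested TIFY and MYC2 genes (22 in the table), which include the JAZ repressors of jasmonate signalling, 5 rose and 0 fell (median 0.47), among them TIFY16 by 1.76 ± 0.21 and TIFY27 by 1.81 ± 0.26 (edgeR adjusted p = 4.43e-05 and 0.000160). TIFY24 rose by 1.12 ± 0.27 (edgeR adjusted p = 0.00420), but unique reads gave it the other direction (-2.31, edgeR adjusted p = 0.151; range over alternatives 2.74e-05 to 0.151). Of 6 other tested proteinase inhibitors, all cystatins (10 in the table), 5 rose and 0 fell (median 1.20), among them psei3 by 2.81 ± 0.38 and psei1 by 1.03 ± 0.24 (edgeR adjusted p = 9.22e-05 and 0.00360). psei5 rose by 1.99 ± 0.24 (edgeR adjusted p = 4.66e-05), and by unique reads was 0.62 and not called (edgeR adjusted p = 0.308; range over alternatives 3.69e-12 to 0.308). MPI was not called in that comparison. The wound-induced inhibitor wip1, also on that list, had 0 reads in all 14 libraries. Genes of jasmonate conjugation and breakdown had no matching name in the gene table.

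Against control over all zones, 0 members of these 5 lists were called under UV-B (0.0293% of all genes were). The list medians were 0.44 for the lipoxygenases, 0.23 for the synthase, lyase and cyclase genes, 0.90 for the reductases, 0.49 for TIFY and MYC2 and 0.30 for the inhibitors, beside -0.01 over all genes. The largest values were 2.81 ± 0.92 for TIFY25 (edgeR adjusted p = 0.517), 2.38 ± 0.83 for TIFY4 (edgeR adjusted p = 0.520) and 2.20 ± 1.15 for lox1 (edgeR adjusted p = 0.595). Without UV-B zone 3 replicate 2 these were 1.22 for TIFY4 and 0.81 for lox1, and lox1 was at 3.20 without control zone 3 replicate 1. TIFY25 had 66.5, 80.6 and 19.6 CPM in UV-B zone 2 and 91.5 and 10.8 CPM in UV-B zone 3, against 6.79 and 0.893 CPM in control zone 2 and 29.9, 0.584 and 0.482 CPM in control zone 3. Its UV-B libraries numbered 1 and 2 thus stood above those numbered 3, as those of MPI did.

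Likeness was measured as Pearson's r of log2(CPM + 1) over the 14 libraries, which share zone, treatment and replicate structure, and is a description. Within the set, AOS and lox9 ran opposite to each other (r = -0.907), AOS went with OPR7 (r = 0.780) and lox10 with MPI (r = 0.715). Among 114 named genes, those most like each member were aos2 for OPR7 (r = 0.910) and second for lox8 (r = 0.553, after SMK2 at 0.582), and aoc2 for AOC1 (r = 0.843, then AMADH1A at 0.830). lox1 came first for MPI (r = 0.714, then mbd101 at 0.534) and second for lox10 (r = 0.680, after sbp19 at 0.742). For lox9 they were mbd123 and sbp16 (r = 0.942 and 0.937), for AOS ERA1 and ORRM1 (r = 0.939 and 0.922), for OPR8 TAC1 and sbp9 (r = 0.871 and 0.775), and CCOAOMT2 was second for OPR7 (r = 0.856).

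With all 4901 genes that carry a name as candidates, a choice made after the data were seen, TIFY25 was most like lox10 (r = 0.862), and bHLH116 and RIP, named for a ribosome-inactivating protein, were most like MPI (r = 0.967 and 0.964). RIP had 19.7, 26.3 and 0.333 CPM in UV-B zone 2 and 55.1 and 0.598 CPM in UV-B zone 3, against at most 0.438 CPM in the 8 control libraries. bHLH116 had 27.7, 12.8 and 0 CPM in UV-B zone 2 and 37.3 and 0 CPM in UV-B zone 3, against at most 0.498 CPM in controls. Both were picked by their r with MPI over these libraries and reach a mean CPM of 5 only through the 3 UV-B libraries with MPI reads. Being read in those libraries therefore follows from the choice, and nothing is read from it. The lipoxygenase lox1 followed them in part: it had 59.5, 132 and 3.99 CPM in UV-B zone 2 and 403 and 12.5 CPM in UV-B zone 3, but also 128 CPM in control zone 3 replicate 1, where MPI had 0 reads.

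The 3 UV-B libraries with MPI reads were at the low end of the clock gene sum, at 54.8, 74.5 and 47.2 CPM. The UV-B libraries without MPI reads were at the high end, at 810, 734 and 524 CPM. Control libraries with low clock sums, between 65.0 and 173 CPM, had 0 to 30 MPI reads. The part of the clock pattern in these values was not tested, and UV-B libraries with a low sum occur in zones 2 and 3 only.

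**Figure D5:**
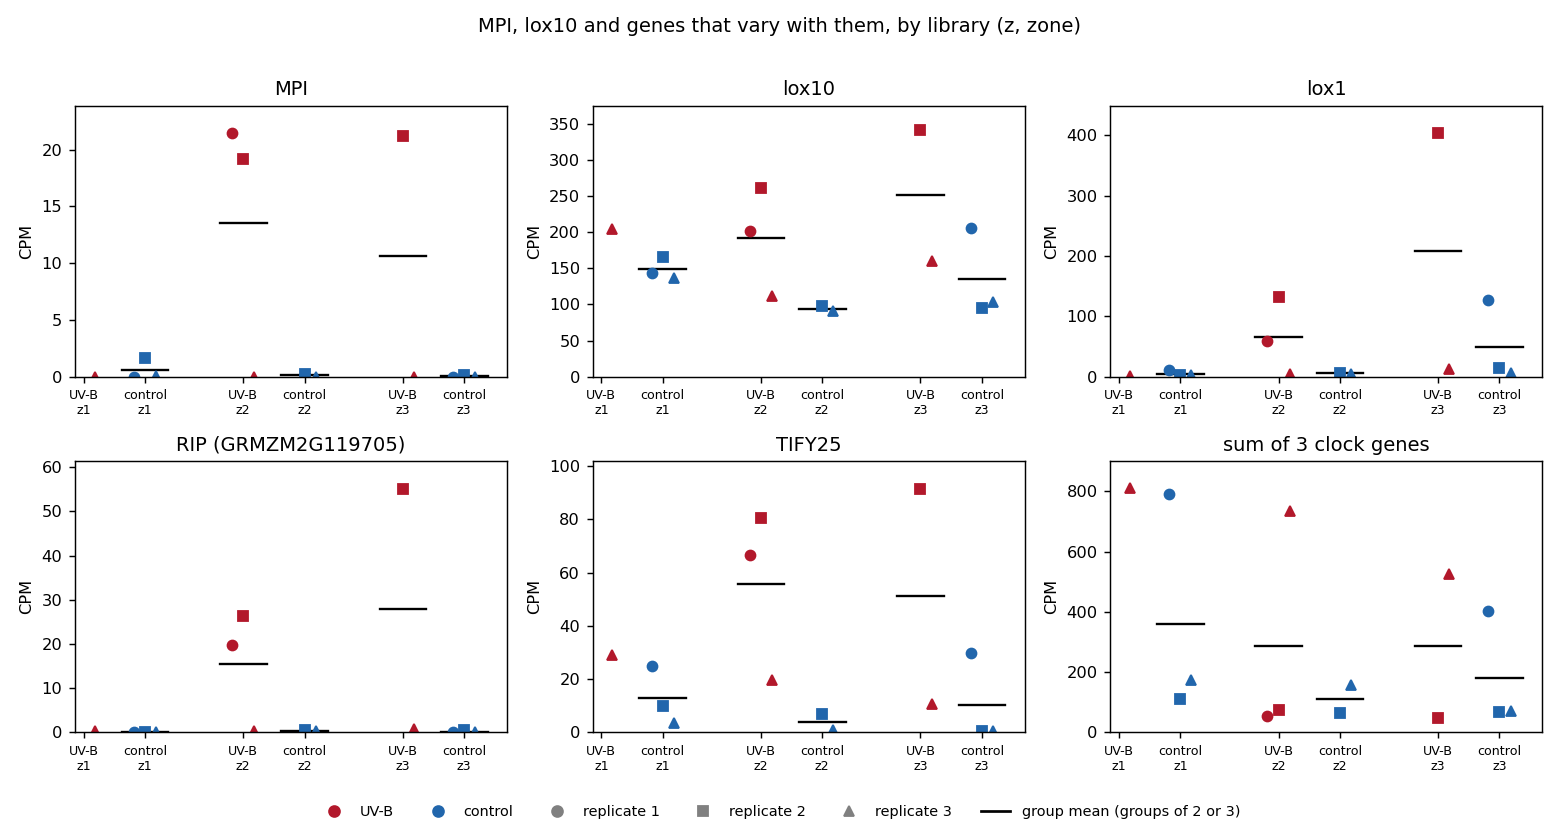
CPM of MPI, lox10, lox1, RIP, TIFY25 and the sum of 3 clock genes in 14 libraries, with UV-B left of control in each zone and marker shapes for replicate numbers. MPI and RIP, a gene picked for its likeness to MPI, are read mainly in UV-B zone 2 replicates 1 and 2 and UV-B zone 3 replicate 2. In these the clock sum is 47.2 to 74.5 CPM, and the UV-B libraries numbered 3 have clock sums of 524 to 810 CPM.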

How the data were processed

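Per the file headers, the authors' deposited table lists total read counts, unique read counts and RPKM for each transcript model. Aligner and build: not given in the sources used here. It held 21 value columns that match no labelled sample, which were not used. Counts of 62892 models were summed to genes. CPM divide by the library's total count, and the authors' RPKM were summed over a gene's models. Symbols, but no positions, came from RefSeq for Zm-B73-REFERENCE-NAM-5.0; 18842 genes and 8 of 8 members matched.

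Genes were tested with edgeR 4.0.16 (R 4.3.3; filterByExpr, TMM, two-sided quasi-likelihood F test, 6 group means; zone plus treatment for UV-B over all zones), with Benjamini-Hochberg adjustment over 23899 genes and a threshold of 0.05. DESeq2 1.42.0, limma-voom 3.58.1, other filters and scaling, unique reads, a replicate block and leaving out each library were alternatives. On simulated counts, with 200 changed genes, the test recovered 94.5% of them for control zone 3 against zone 1. It recovered 90.0% for UV-B in zone 2 and 84.0% in zone 3, with 4, 10 and 7 false calls in turn. The planted changes had a median size of 2.0 on the log2 scale. They were set in well-read genes with a common spread and no other effects. The rates therefore do not cover smaller changes or genes with few reads. Counting error is the only error that 0-count limits (3 reads) cover.

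Members and lists were chosen with earlier results of these data known. From each list the text names the called genes with the smallest adjusted p (up to 3 per direction) or, for UV-B, the 2 with the largest change at a mean CPM of 5 or more; for likeness, the 2 named genes with the highest r. Same-numbered libraries of control zones 1 and 3 deviated together (r = 0.225 to 0.430 over 3 pairs), so the numbers were taken to pair control zones. The main zone tests leave this pairing out, and the replicate block holds it. Blocks joined replicate numbers within a treatment for zone comparisons and across treatments for UV-B. Across treatments the replicate numbers did not pair libraries (r = -0.109 to 0.439 over 4 pairs). They differ from the title numbers, and the title number 7, found in both treatments, was not used to pair them.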

Additional observations from a re-analysis of the deposited data

How the results depend on the processing

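AOS and lox9 kept their calls between control zones 3 and 1 whichever library was left out, and lox9 lost its call with unique reads. With unique reads, which move the median of all genes in that comparison by -0.32 instead of -0.02, 2 members stayed past the threshold there and 0 between control zones 3 and 2, 822 genes were called between control zones 2 and 1, 1525 between control zones 3 and 2, 447 between UV-B zones 3 and 2, 4 for UV-B over all zones and 0 in zone 3, and TIFY24 turned to -2.31. The replicate block called 1 member (AOS) and 4711 genes between control zones 2 and 1, 2 members (AOS and lox9) and 7031 genes between control zones 3 and 2, and 1 member (AOS) and 5449 genes between UV-B zones 3 and 2. For UV-B over all zones, the block called 45 genes, among them TIFY25 (3.54, edgeR adjusted p = 0.00455), aos2 (1.02, edgeR adjusted p = 0.0344) and 1 member, MPI. The numbers were not taken to pair libraries across treatments, so nothing is read from any of these calls. MPI also passed the filter only through its UV-B libraries. In zone 1 the block called 0 genes. DESeq2 called 1 member (AOS) and 3020 genes between control zones 2 and 1, 1 member (AOS) and 2880 genes between UV-B zones 3 and 2, 66 genes for UV-B over all zones and 8, 2 and 4 in zones 1, 2 and 3. limma-voom called 1 member (AOS) between control zones 2 and 1, 960 genes between UV-B zones 3 and 2, 4 for UV-B over all zones and 5, 1 and 0 in zones 1, 2 and 3. Fits of only the compared groups called 0 genes between UV-B zones 3 and 2, 1 for UV-B in zone 2 and 0 in zone 3. With all 15 libraries or with no filter, 14 genes were called for UV-B over all zones. The cause of these shifts was not tested.

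Leaving out 1 library at a time gave 2 to 4 members and 9817 to 12872 genes between control zones 3 and 1, 0 to 1 members and 879 to 2279 genes between zones 2 and 1, 0 to 2 members and 558 to 3817 genes between zones 3 and 2, and 0 members and 0 to 2416 genes between UV-B zones 3 and 2. For UV-B it gave 0 members throughout, with 4 to 13 genes over all zones and 0 to 1, 0 and 0 to 1 genes in zones 1, 2 and 3. The order of levels per length was not changed by any alternative tried. UV-B zone 1 rests on 1 library, and UV-B zone 3 replicate 3, with 1673416 reads, limits what is seen of lox8 and MPI there.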
